A study of Homo sapiens with 12 samples.

Results

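The genes described here are 10 transcription factors and early response genes that are used as readouts of growth factor signalling through ERK. They are the ETS factors ETV1, ETV4 and ETV5, the AP-1 factors FOS, FOSL1 and JUN, the zinc finger factor EGR1, and the early response genes IER2, IER3 and PHLDA1. They were taken by symbol from tables of 23613 gene symbols, and each of the 10 was found. Symbols were chosen by name and not by their values here, although earlier results of the same data were known.

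Fibroblast growth factors and other ligands activate RAS, RAF, MEK and then the kinase ERK. ERK phosphorylates ternary complex factors such as ELK1 that sit with SRF on promoters, and immediate early genes such as EGR1 and FOS are then transcribed within minutes, without new protein synthesis, and are turned off again. ETV1, ETV4 and ETV5 form the PEA3 subfamily of ETS factors. Their transcripts follow sustained FGF and ERK signalling, and the repressor CIC keeps them low when ERK is inactive. DUSP6, SPRY and SPRED proteins are transcribed in the same settings and feed back on the pathway. In human embryonic stem cells, FGF with ERK signalling is known for sustaining the primed state, and naive culture media usually contain a MEK inhibitor.

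Poly(A)-enriched RNA of manually picked colonies was sequenced of H9 and RUES2, established lines of human embryonic stem cells, in a primed and a naive state, with 3 libraries in each of 4 groups. Primed H9 (passages 31 to 35) and primed RUES2 (passages 30 to 33) grew on mitomycin C-treated mouse embryonic fibroblast feeders in medium with 20% knockout serum replacement and 4 ng/mL bFGF, and were passaged every 6 to 7 days with dispase. Naive H9 (passages 27 to 31) and naive RUES2 (passages 24 to 26) grew in a medium with 5 mM glucose, 20 ng/mL human LIF, bovine serum albumin, 18 µg/mL insulin, 1 µM PD0325901 (which inhibits MEK) and 3 µM CHIR99021 (which inhibits GSK3), and were passaged every 3 days. The labels name no feeder layer for the naive medium. State, medium, MEK inhibitor and passage interval changed together between the groups. Passage numbers were also lower in the naive groups, apart in RUES2 and meeting at 31 in H9. Dispase and a feeder layer are named for the primed groups only. The parts of these in a state difference cannot be told apart. Reads of mouse feeder RNA cannot be told from human ones in the levels below, and their part was not tested. The labels give the 3 libraries in each group as biological replicates but do not say whether the cultures were separate. The p-values therefore measure only the spread among these samples, which may be technical.

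Levels are in FPKM, fragments scaled to transcript length and to the mapped total of the library. The FPKM summed to between 754195 and 986124 per library, and 12681 to 13592 genes reached 1 FPKM. The tables hold no read counts, so the sequencing depth is not known directly, and the authors' deposited confidence bounds are given where the level is low. Short RNA genes held 38.2% to 44.3% of the sum in primed H9, 44.2% to 50.1% in naive H9, 35.1% to 40.4% in primed RUES2 and 44.3% to 47.6% in naive RUES2. This share ran higher in the naive groups, without overlap in RUES2. In H9 primed replicate 3 (44.3%) lay just above naive replicate 3 (44.2%). With those genes left out before rescaling, 4 members remained called lower in each line. The 10 pluripotent cell markers summed to 2266 to 2845 FPKM in primed H9, 1421 to 1470 in naive H9, 2231 to 2731 in primed RUES2 and 1496 to 1766 in naive RUES2, and each group held all 10 above 1 FPKM in at least 1 library. The 14 fibroblast markers summed to 73.3 to 150 FPKM in primed H9, 433 to 630 in naive H9, 45.5 to 106 in primed RUES2 and 268 to 1165 in naive RUES2. Of those 14, 3, 1, 4 and 0 were under 1 FPKM in every library of these groups, in the same order. Neural markers, 10 genes, summed to 140 to 178 FPKM in primed H9, 301 to 321 in naive H9, 102 to 178 in primed RUES2 and 325 to 370 in naive RUES2, and of these 5, 3, 5 and 4 were under 1 FPKM in every library. The sums of 10 mesendoderm markers overlapped between the states, at 28.9 to 179, 148 to 160, 153 to 241 and 196 to 373 FPKM in the same order, but MIXL1 lay between 2.8 and 18.7 FPKM in primed and between 50.9 and 91.0 in naive libraries. The limma calls in naive H9 and naive RUES2 were 5 and 5 higher with 0 and 0 lower of 6 tested neural markers, and 5 and 6 higher with 2 and 0 lower of 10 mesendoderm markers. For trophoblast and amnion markers they were 3 and 3 higher with 1 and 3 lower of 7. Of 10 primed state markers 0 were called higher and 7 lower in each line, and of 8 tested naive state markers 5 were called higher in H9 and 2 in RUES2, with 0 lower. Of the 10 pluripotent cell markers, 0 were called higher and 6 lower in H9, and 1 higher and 9 lower in RUES2. Of all tested genes, 23.9% in H9 and 23.6% in RUES2 were called lower. Pluripotent cell, fibroblast, neural and part of the mesendoderm marker levels moved with the state, and their part in the results below was not tested. In bulk RNA, fewer cells expressing a gene and less RNA per cell cannot be told apart.

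Libraries were also compared with their line labels over 24 genes that are often on in some human cell lines and off in others. THNSL2 lay between 0.0528 and 0.0839 FPKM in the 3 libraries labelled naive RUES2 and between 0.844 and 3.48 in those labelled primed RUES2. CTSF lay between 0.0395 and 0.276 FPKM in primed H9 and between 2.76 and 5.3 in naive H9. The bounds of 0.1 and 0.5 FPKM were set after these values were seen. Under them 5 libraries did not match the other state of their line, 3 labelled naive RUES2 and 2 labelled primed H9. The other line in the same state had to pass the upper bound too. Of the 24 genes, 2 set any library apart, THNSL2 and CTSF. THNSL2 lay between 0.952 and 1.7 FPKM in H9, and CTSF between 5.12 and 21.6 in RUES2. What moved these genes was not tested. MYC and NANOG also stood apart in the libraries labelled naive RUES2. MYC measured 199, 427 and 169 FPKM there and 14.3 to 44.1 FPKM in the other 9 libraries. NANOG measured 248, 459 and 193 FPKM there and 33.2 to 100.4 FPKM elsewhere. Directions in both lines are therefore given as labelled. The H9 comparison rests on the primed H9 group, which holds 2 of the 5 libraries. The H9 comparison was also fitted without the naive RUES2 group, and its 4 members called lower remained called, with limma adjusted p-values of 7.65e-05 for ETV1, 0.00311 for EGR1, 0.000262 for IER2 and 0.000502 for PHLDA1.

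Sequence upstream of 4 members is shown because 2 of them fell furthest in the naive groups (EGR1 and ETV1) and 2 are immediate early genes that passed no test of state (FOS and JUN). RefSeq windows of GRCh38.p14, from 250 bases before to 50 after a transcript start, were matched by symbol. EGR1, FOS, JUN, IER2 and PHLDA1 had 1 window each and ETV1 had 6, while ETV4, ETV5, FOSL1 and IER3 were not among them. The 250 bases before the start are printed 5′ to 3′ on the strand of the gene, and capitals mark every motif match on either strand. They are EGR1 at chr5:138465229-138465478 (plus strand), the most upstream ETV1 start at chr7:13991426-13991675 (minus strand), FOS at chr14:75278578-75278827 (plus strand) and JUN at chr1:58784048-58784297 (minus strand).
EGR1: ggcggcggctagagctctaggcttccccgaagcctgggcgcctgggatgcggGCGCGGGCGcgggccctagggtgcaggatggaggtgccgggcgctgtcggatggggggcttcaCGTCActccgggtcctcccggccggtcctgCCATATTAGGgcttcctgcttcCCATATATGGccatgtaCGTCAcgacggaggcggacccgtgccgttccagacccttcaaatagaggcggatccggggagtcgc
ETV1: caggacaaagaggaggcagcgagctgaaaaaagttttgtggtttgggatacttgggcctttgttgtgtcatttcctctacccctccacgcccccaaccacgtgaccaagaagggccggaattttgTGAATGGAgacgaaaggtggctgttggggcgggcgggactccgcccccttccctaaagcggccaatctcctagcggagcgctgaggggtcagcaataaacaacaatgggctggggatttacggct
FOS: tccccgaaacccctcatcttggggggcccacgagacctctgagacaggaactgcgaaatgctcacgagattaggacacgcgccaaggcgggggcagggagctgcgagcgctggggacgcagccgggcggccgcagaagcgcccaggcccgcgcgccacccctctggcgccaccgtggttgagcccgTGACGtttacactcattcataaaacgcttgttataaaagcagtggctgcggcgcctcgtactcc
JUN: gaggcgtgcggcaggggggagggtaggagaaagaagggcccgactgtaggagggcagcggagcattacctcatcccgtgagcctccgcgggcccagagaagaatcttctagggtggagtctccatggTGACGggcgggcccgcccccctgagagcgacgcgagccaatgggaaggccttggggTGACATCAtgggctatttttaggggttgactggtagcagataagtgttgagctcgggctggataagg

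The motifs searched were the CArG box bound by SRF, TGANTCA and TGACATCA for AP-1 and its ATF partners, TGACGTCA and its shorter form TGACG for CREB and ATF, TGAATGAA and TGAATGGA for CIC, and GCGNGGGCG for EGR factors. TGACG is contained in TGACGTCA, and TGAATGAA and TGAATGGA differ by 1 base. EGR1 held 2 CArG boxes, which began 105 and 83 bases before the start, 1 match to GCGNGGGCG at 198, and 2 to TGACG on the other strand at 135 and 66. The printed ETV1 window held 1 match to TGAATGGA at 125 bases before its start, and no other of the 6 ETV1 windows did. Other ETV1 windows matched TGACG, at 28 and 24 (the same letters in windows that overlap) and on the other strand at 102. The shares below are per window, and ETV1 was searched in 6. IER2, also called lower, held 1 match to TGACG at 140 and no other motif, and PHLDA1 held none of them. FOS held 1 match to TGACG at 64, and JUN 1 to TGACATCA at 67 and 1 to TGACG at 123. Over all 35116 windows, the CArG box was found in 1.29%, TGAATGGA in 1.03%, TGAATGAA in 1.65%, TGACATCA in 2.61%, GCGNGGGCG in 9.43% and TGACG in 24.6%. TGANTCA (7.71% of windows) and TGACGTCA (1.85%) had no match in the members' windows. A match describes the letters and is no evidence of binding. Sequence further upstream than these windows was not searched. The lack of a match, as for the CArG box in FOS and JUN, therefore holds for the window only. It does not show that the gene lacks such a site.

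Of the 10 genes, 4 were called lower in naive than in primed cells in both lines. For ETV1, EGR1 and IER2 the call stood in every alternative run. For PHLDA1 that was so in H9, but in RUES2 its groups overlapped, its limma adjusted p was 0.0489, and 15 of 21 alternatives ended the call. In contrast, ETV4, ETV5, FOS, FOSL1 and JUN passed the test in neither line. IER3 was higher in the naive libraries labelled RUES2 and did not pass in H9. The test was limma on log2(FPKM + 1) over all 12 libraries, with Benjamini-Hochberg adjustment over the 14428 genes that reached 1 FPKM in at least 3 libraries, and a gene was called at an adjusted p under 0.05. All 10 members passed that filter, EGR1 through its primed libraries alone. In H9, 0 members were called higher and 4 lower, where 20.4% of all tested genes were called higher and 23.9% lower. At an unadjusted p under 0.05 these counts were 0 and 4 as well. In RUES2, 1 was called higher and 4 lower, where 23.1% of all genes were called higher and 23.6% lower. The 3 libraries of each state did not overlap for 5 members in H9 and 4 in RUES2, and for 57.3% of all genes in either line. The median difference over the 10 members was -0.54 in H9 and -0.41 in RUES2 (log2), and over all genes it was -0.01 and 0.01. Fold changes on this scale understate the change of low genes.

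**Figure D1:**
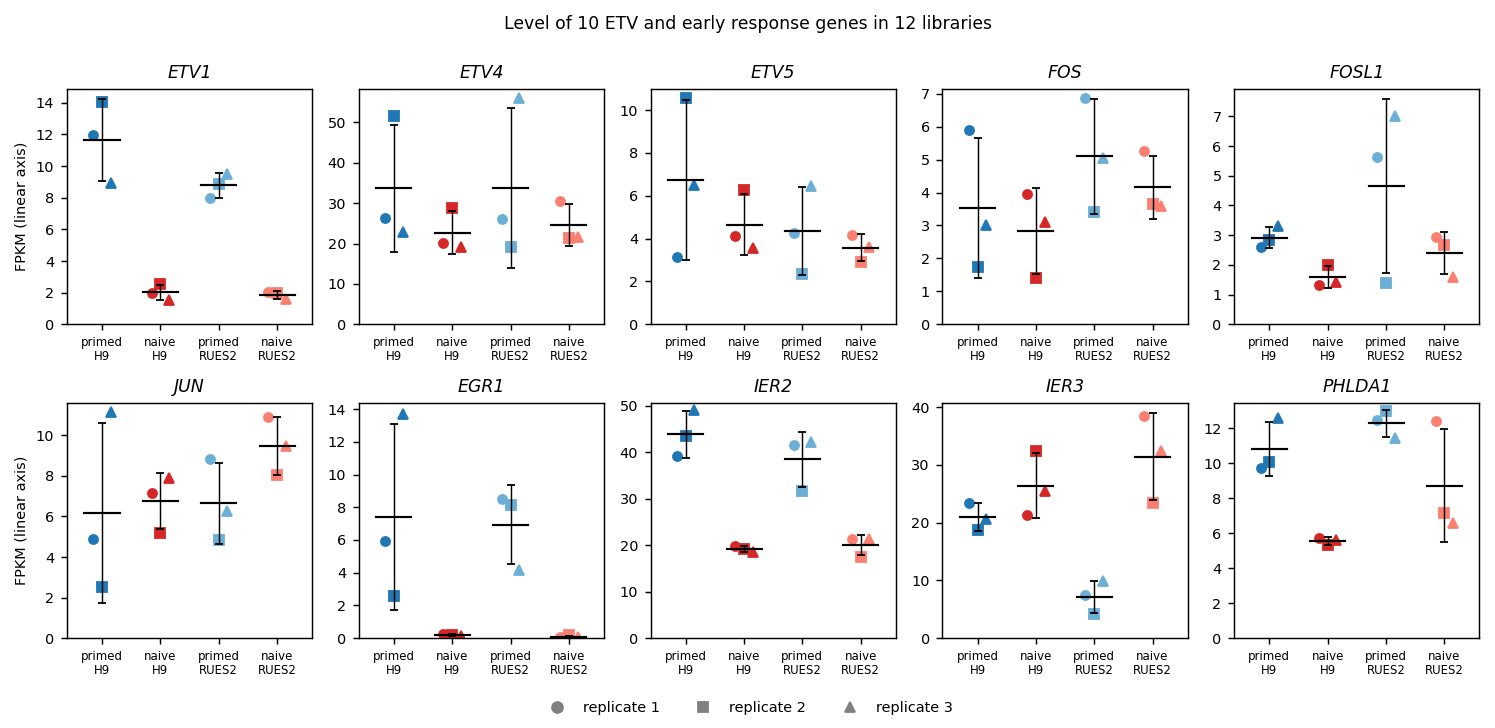
FPKM (linear axis) of the 10 genes in each of the 12 libraries, by group. Symbols mark replicates 1 to 3, black lines the group means and error bars the SD (n = 3). EGR1 lay between 2.58 and 13.7 FPKM in the primed libraries and at or under 0.277 in the naive ones, while FOS and JUN overlapped between the states in both lines.

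Of the 3 PEA3 factors, ETV1 was called and ETV4 and ETV5 were not. ETV1, an ETS activator located at chr7:13930856-14031050 in the files' hg19 annotation, measured 11.9, 14.1 and 8.95 FPKM in primed H9 replicates 1 to 3, and 1.95, 2.54 and 1.55 in naive H9. It measured 7.97, 8.9 and 9.49 FPKM in primed RUES2, and 2.04, 1.99 and 1.58 in naive RUES2. All 6 primed libraries were above all 6 naive ones, and the 2 lines overlapped within each state. Mean levels fell from 11.7 ± 2.58 to 2.01 ± 0.493 FPKM in H9 (SD, n = 3, 5.79-fold lower; log2 difference -2.06, SE 0.16, limma adjusted p = 8.17e-06). In RUES2 they fell from 8.79 ± 0.77 to 1.87 ± 0.253 FPKM (4.7-fold lower; -1.77, SE 0.16, limma adjusted p = 2.06e-05). The call stood in each of the 22 alternatives run for H9 and the 21 for RUES2.

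ETV4 (chr17:41605211-41623800), the most abundant PEA3 factor in every library, measured 26.4, 51.7 and 22.9 FPKM in primed H9 and 20.1, 28.9 and 19.2 in naive H9. It measured 26.0, 19.1 and 56.1 FPKM in primed RUES2 and 30.5, 21.4 and 21.6 in naive RUES2. In each line 1 primed library, replicate 2 of H9 and replicate 3 of RUES2, stood above the rest, and the states overlapped in both lines. The difference was -0.48 in H9 (95% interval -1.34 to 0.38, limma adjusted p = 0.343) and -0.32 in RUES2 (-1.18 to 0.54, adjusted p = 0.526). Without primed RUES2 replicate 3 the latter was 0.11.

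ETV5 (chr3:185764106-185826901) measured 3.13, 10.6 and 6.49 FPKM in primed H9 and 4.14, 6.25 and 3.56 in naive H9. It measured 4.28, 2.33 and 6.46 FPKM in primed RUES2 and 4.17, 2.92 and 3.62 in naive RUES2. Its highest primed library was the same as for ETV4 in each line, and the states overlapped. The differences of -0.36 in H9 (95% interval -1.19 to 0.47, limma adjusted p = 0.465) and -0.16 in RUES2 (-0.99 to 0.67, adjusted p = 0.751) did not pass. These intervals, with an SE of 0.37 in each line, leave room for a fall as well as a rise.

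EGR1 (chr5:137801181-137805004), a zinc finger factor that couples growth signals to transcription, had the lowest naive levels of the 10 genes. It measured 5.97, 2.58 and 13.7 FPKM in primed H9 and 8.51, 8.14 and 4.15 in primed RUES2. It measured 0.277, 0.181 and 0.161 FPKM in naive H9 and 0.0561, 0.17 and 0.064 in naive RUES2. No naive library came near a primed one, and in naive RUES2 replicates 1 and 3 the authors' lower confidence bound was 0. Means fell from 7.41 ± 5.69 to 0.206 ± 0.0617 FPKM in H9 (SD, n = 3, 35.9-fold lower; log2 difference -2.57, SE 0.41, limma adjusted p = 0.000734). In RUES2 they fell from 6.93 ± 2.42 to 0.0967 ± 0.0636 FPKM (71.7-fold lower; -2.80, SE 0.41, limma adjusted p = 0.000388). The size on the log2 scale depends on the pseudocount, and with 0.1 in place of 1 it was -4.33 in H9 and -5.14 in RUES2. The primed level itself varied by 5.3 times among the H9 libraries.

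**Figure D2:**
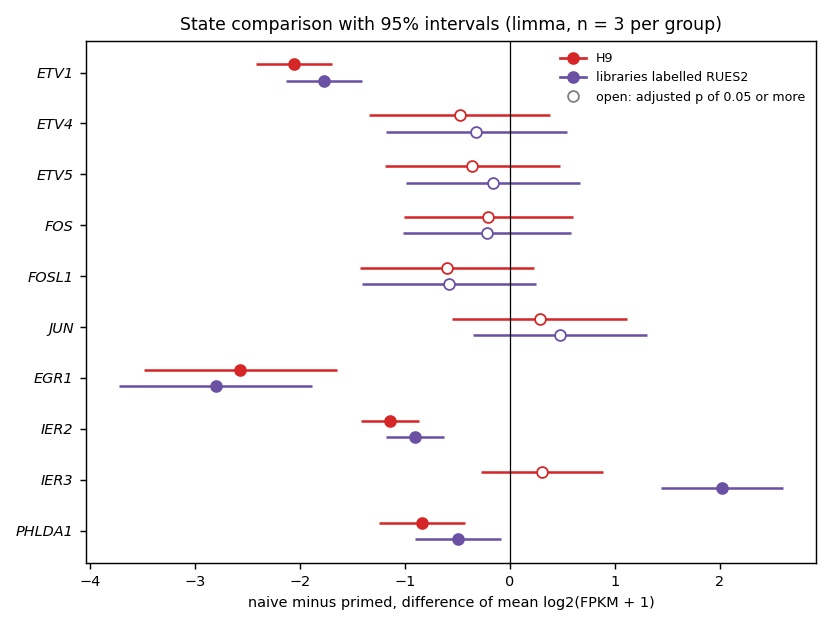
Naive minus primed difference of mean log2(FPKM + 1) for each gene, with 95% intervals from limma (n = 3 libraries per group), in H9 and in the libraries labelled RUES2. Filled points passed an adjusted p of 0.05. ETV1, EGR1, IER2 and PHLDA1 lie left of 0 in both lines, and IER3 lies right of 0 at 2.02 in RUES2.

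None of the 3 AP-1 factors was called in either state comparison. FOS (chr14:75745481-75748937), which pairs with JUN proteins to form AP-1, measured 5.88, 1.74 and 3.01 FPKM in primed H9 and 3.97, 1.42 and 3.11 in naive H9. It measured 6.87, 3.4 and 5.03 FPKM in primed RUES2 and 5.27, 3.65 and 3.58 in naive RUES2. The states overlapped in both lines, and the replicates of a group differed by up to 3.39 times. The difference was -0.21 in H9 (95% interval -1.01 to 0.60, limma adjusted p = 0.674) and -0.22 in RUES2 (-1.02 to 0.59, adjusted p = 0.653). In H9 its sign turned to 0.15 without primed replicate 1 and to 0.10 without naive replicate 2.

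JUN (chr1:59246463-59249785), the AP-1 subunit that can also bind as a homodimer, measured 4.88, 2.52 and 11.1 FPKM in primed H9 and 7.16, 5.2 and 7.92 in naive H9. It measured 8.82, 4.86 and 6.25 FPKM in primed RUES2 and 10.9, 8.04 and 9.46 in naive RUES2. Naive means were the higher ones in both lines, but the libraries of the 2 states overlapped. The difference was 0.28 in H9 (95% interval -0.55 to 1.11, limma adjusted p = 0.568) and 0.48 in RUES2 (-0.35 to 1.31, adjusted p = 0.322).

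FOSL1 (chr11:65659692-65667997), a FOS relative whose transcript follows sustained ERK activity, measured 2.6, 2.83 and 3.3 FPKM in primed H9 and 1.32, 2.0 and 1.43 in naive H9. It measured 5.62, 1.38 and 7.0 FPKM in primed RUES2 and 2.95, 2.66 and 1.6 in naive RUES2. The H9 states did not overlap, whereas primed RUES2 replicate 2 lay below every naive RUES2 library. The difference was -0.60 in H9 (limma adjusted p = 0.214) and -0.58 in RUES2 (adjusted p = 0.227), each with an SE of 0.37. That 1 primed RUES2 library decided the calls, since without it the adjusted p was 0.0179 in H9 and 0.00166 in RUES2, where the difference became -1.12. A fit on the H9 libraries alone also called the H9 difference (limma adjusted p = 0.0156).

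Of the other early response genes, IER2 and PHLDA1 were lower in the naive groups. IER2 (chr19:13261282-13265718), a nuclear protein induced by serum and growth factors, measured 39.1, 43.4 and 49.1 FPKM in primed H9 and 19.8, 19.1 and 18.6 in naive H9. It measured 41.6, 31.6 and 42.3 FPKM in primed RUES2 and 21.3, 17.5 and 21.3 in naive RUES2. Every primed library was above every naive one, and the naive H9 libraries lay within 1.06 times of each other. Means fell from 43.9 ± 4.99 to 19.2 ± 0.598 FPKM in H9 (SD, n = 3, 2.29-fold lower; log2 difference -1.15, SE 0.12, limma adjusted p = 6.06e-05). In RUES2 they fell from 38.5 ± 5.96 to 20.0 ± 2.19 FPKM (1.92-fold lower; -0.90, SE 0.12, limma adjusted p = 0.000259).

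PHLDA1 (chr12:76419227-76425556), a pleckstrin homology-like protein induced by growth factors, measured 9.75, 10.1 and 12.6 FPKM in primed H9 and 5.75, 5.32 and 5.63 in naive H9. It measured 12.5, 12.97 and 11.4 FPKM in primed RUES2 and 12.4, 7.19 and 6.58 in naive RUES2. The H9 states were apart, while naive RUES2 replicate 1 lay among the primed RUES2 libraries. The difference was -0.84 in H9 (SE 0.19, limma adjusted p = 0.00457, 1.94-fold lower). It was -0.50 in RUES2 (SE 0.19, limma adjusted p = 0.0489), a call that ended in 15 of 21 alternatives, whose adjusted p ranged from 0.000922 to 0.324. Among these were the fit on the RUES2 libraries alone (0.115) and the fits without primed RUES2 replicate 1 (0.108), 2 (0.117) or 3 (0.0681).

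IER3 (chr6:30710976-30712327), a stress and growth factor response protein that modulates apoptosis, was the 1 member called higher in naive cells. It measured 23.5, 18.8 and 20.6 FPKM in primed H9 and 21.3, 32.4 and 25.4 in naive H9. It measured 7.41, 4.26 and 9.86 FPKM in primed RUES2 and 38.5, 23.4 and 32.4 in naive RUES2. Primed RUES2 was below all 9 other libraries, and the 2 H9 states overlapped. In RUES2 the mean rose from 7.17 ± 2.81 to 31.4 ± 7.57 FPKM (SD, n = 3, 4.38-fold higher; log2 difference 2.02, SE 0.26, limma adjusted p = 0.000173). The H9 difference was 0.30 (95% interval -0.28 to 0.89, limma adjusted p = 0.373). The tables also list IER3 on 5 alternate haplotype sequences of chromosome 6, at 0 in every library, and reads shared between these copies could be split or dropped in the authors' processing.

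The state difference of IER3 was itself larger in the libraries labelled RUES2 than in H9, by 1.72 (log2, SE 0.37, limma adjusted p = 0.0256 for the interaction). It was 1 of 10 members called higher in that test and 0 were called lower, against 3.77% of all genes called higher and 1.93% lower (544 and 279 genes, or 486 and 416 with short RNAs left out). The call ended without primed H9 replicate 1 (adjusted p = 0.0541), naive H9 replicate 1 (0.0717) or 3 (0.0625), primed RUES2 replicate 1 (0.0543) or naive RUES2 replicate 1 (0.0578), with differences of 1.56 to 1.77. Between the lines in the primed state, IER3 was 2.92-fold lower in RUES2 (-1.48, SE 0.26, limma adjusted p = 0.025), and it was the 1 member called there, where 0.471% of genes were called lower and 1.34% higher. The primed libraries of the 2 lines did not overlap for 1 member, IER3, and for 14.6% of all genes. That call ended in the fit on the primed libraries alone (adjusted p = 0.191), without primed H9 replicate 1 (0.0832) or primed RUES2 replicate 1 (0.0875), and without the naive RUES2 group (0.0553). FOSL1 was called higher in primed RUES2 when primed RUES2 replicate 2 was left out (0.90, adjusted p = 0.0448).

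In the naive state 0 members were called between the lines in either direction, where 11.2% of all genes were called higher and 4.69% lower in RUES2 (1612 and 677 genes, or 1168 and 1477 with short RNAs left out). At an unadjusted p under 0.05 there was 1, PHLDA1 (0.52 higher in RUES2, SE 0.19, limma adjusted p = 0.0869), which was called without naive RUES2 replicate 3 (adjusted p = 0.0406). The naive libraries of the 2 lines did not overlap for 2 members, JUN and PHLDA1, and for 46.2% of all genes. JUN was 0.44 higher in RUES2 (limma adjusted p = 0.477). For the 4 genes lower in both lines, the interaction estimates were 0.29 for ETV1 (95% interval -0.22 to 0.80), -0.23 for EGR1 (-1.53 to 1.07), 0.25 for IER2 (-0.15 to 0.64) and 0.34 for PHLDA1 (-0.24 to 0.93), none of them called by limma.

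In order of the group means, both primed groups came above both naive groups for 6 of the 10 genes, ETV1, ETV4, FOSL1, EGR1, IER2 and PHLDA1. For ETV1 and EGR1 the order was primed H9, primed RUES2, naive H9 and naive RUES2, and the 1 step without overlap was that between primed RUES2 and naive H9. IER2 had the same primed order with naive RUES2 above naive H9, and again the step between the states was the 1 without overlap. For ETV4, ETV5, FOS and FOSL1 each group overlapped the next in order. For IER3 the step from primed H9 down to primed RUES2 was without overlap, for JUN that from naive RUES2 to naive H9, and for PHLDA1 that from naive RUES2 to naive H9.

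Replicates of a group spread widely for several of these genes. The median coefficient of variation over the 10 genes was 34.4% in primed H9 and 34.4% in primed RUES2, and 23.2% and 22.0% in naive H9 and naive RUES2. No test was made of that difference. ETV4 and ETV5 were highest in primed H9 replicate 2 and primed RUES2 replicate 3, and so were the ERK feedback genes DUSP6 and SPRY4. DUSP6, which encodes an ERK phosphatase, measured 19.2, 75.0 and 13.6 FPKM in primed H9 and 5.79, 5.36 and 18.9 in primed RUES2. SPRY4, a Sprouty inhibitor of receptor tyrosine kinase signalling, measured 12.7, 32.3 and 21.2 FPKM in primed H9 and 9.04, 4.96 and 19.3 in primed RUES2. In the naive groups SPRY4 was again highest where ETV4 and ETV5 were, in replicate 2 of H9 and replicate 1 of RUES2. DUSP6 was not, with its highest level in replicate 1 of naive H9 and replicate 3 of naive RUES2. These pairs were chosen after their values were seen, and they are a description.

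FOS and JUN followed another order among the same libraries. FOS was lowest in replicate 2 in 3 of the 4 groups and highest in replicate 1 in all 4, and JUN was lowest in replicate 2 in all 4. CTGF and CYR61, immediate early genes that encode secreted matricellular proteins, were also lowest in replicate 2 of both primed groups, and were chosen after their values were seen. Both were lowest in replicate 2 of naive RUES2, but in naive H9 CTGF was lowest in replicate 1 and CYR61 in replicate 2. JUNB and FOSL2, other AP-1 genes of the immediate early list, shared that order only in part. JUNB was lowest in replicate 1 of both primed groups (1.09 FPKM in H9 and 1.2 in RUES2). It was lowest in replicate 2 of naive H9 and in replicate 1 of naive RUES2. FOSL2 was lowest in replicate 2 of primed H9 (1.53), naive H9 and naive RUES2, but in replicate 1 of primed RUES2 (1.86). CTGF measured 47.5, 19.2 and 77.3 FPKM in primed H9 and 50.9, 22.7 and 55.5 in primed RUES2. CYR61 measured 33.2, 13.4 and 61.0 FPKM in primed H9 and 44.1, 18.1 and 51.3 in primed RUES2. EGR1 was lowest in replicate 2 in primed H9 but in replicate 3 in primed RUES2. The labels tie no replicate number to a date. Across all tested genes, the deviations of same-numbered libraries from their group means correlated at -0.0537 to 0.136 over the pairs of groups. In primed RUES2 against naive RUES2, 6 of 6 libraries correlated best with their own number, at 0.0067 to 0.0825. In the other pairs of groups 0 to 4 of 6 did, with 0 for primed H9 against naive H9.

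**Figure D3:**
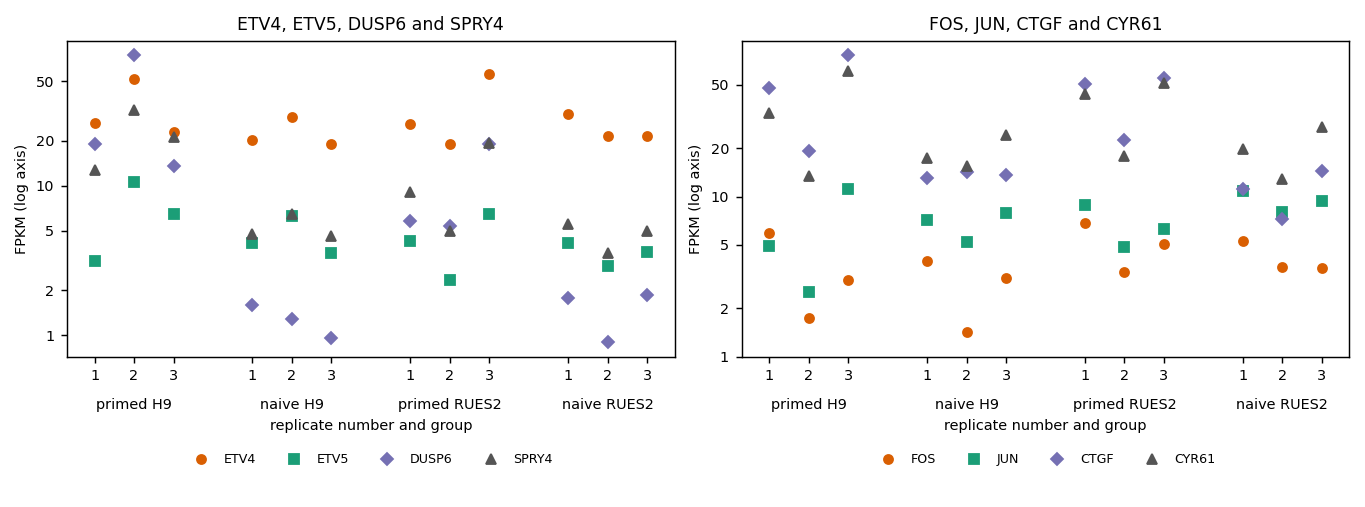
FPKM (log axis) in each library by group and replicate number, for ETV4, ETV5 and the feedback genes DUSP6 and SPRY4 (left) and for FOS, JUN, CTGF and CYR61 (right). On the left primed H9 replicate 2 and primed RUES2 replicate 3 are highest, and on the right replicate 2 is lowest in both primed groups.

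Around the members, genes of the same pathway were called in both directions, as were genes in general, of which 20.4% were called higher and 23.9% lower in H9, and 23.1% and 23.6% in RUES2. The counts of each list below stand beside those shares. A list of 17 negative regulators of ERK signalling held feedback genes such as DUSP6, and also the RAS inhibitor genes NF1 and RASA1 and the ubiquitin ligase gene CBL. DUSP6 is in the list of primed state markers too. Of the 17, 3 were called higher and 10 lower in naive H9, and 3 higher and 5 lower in naive RUES2 (limma, adjusted over all genes). Over the alternatives 7 to 11 were lower in H9 and 4 to 10 in RUES2, where the count was 8 with median-ratio scaling and 10 with short RNAs left out. The list median was -0.52 in H9 and -0.42 in RUES2. The called genes of largest change in H9 were DUSP6, SPRY4, SPRY1 and DUSP2. SPRY1, another Sprouty gene, fell from 10.2 ± 2.13 to 2.44 ± 0.285 FPKM (log2 difference -1.68), and DUSP2, a nuclear MAP kinase phosphatase, fell from 2.28 ± 0.627 to 0.252 ± 0.0525 FPKM (-1.37). In RUES2 they were DUSP6 (10.03 ± 7.72 to 1.51 ± 0.535 FPKM, -1.94), the EGF receptor inhibitors ERRFI1 (-1.30) and LRIG1 (-1.24), and the ubiquitin ligase CBL (-0.92). DUSP6 measured 1.58, 1.28 and 0.959 FPKM in naive H9 and 1.78, 0.897 and 1.86 in naive RUES2, all 6 below the lowest primed library at 5.36. Its state difference between the lines was not called, whereas that of DUSP2 was 1.90 (limma adjusted p = 0.011). SPRY2 and SPRED2 were called higher in the naive group of each line, as were NF1 in H9 and DUSP7 in RUES2.

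Of 36 other immediate early genes, 29 could be tested. In H9 7 were called higher and 9 lower, and in RUES2 8 were called higher and 9 lower, with list medians of -0.12 and 0.17. These counts are near the shares of all genes. In RUES2 5 were lower without primed RUES2 replicate 1 and 4 without naive RUES2 replicate 2. RHOB, a small GTPase of endosomes, rose from 14.1 ± 5.82 to 133 ± 4.64 FPKM in H9 (SD, n = 3, log2 difference 3.23) and from 12.6 ± 0.586 to 84.7 ± 14.5 in RUES2 (2.64). In H9 the antiproliferative gene BTG2 rose as well (3.23 ± 1 to 12.1 ± 1.53 FPKM, 1.65). CTGF fell from 48.0 ± 29.1 to 13.7 ± 0.629 FPKM in H9 (-1.54), and its difference in RUES2 was -1.82. ARC, named for its activity-dependent induction in neurons, fell from 2.84 ± 1.36 to 0.548 ± 0.198 FPKM in H9 (-1.25). In RUES2 the AP-1 subunit gene JUNB rose from 1.65 ± 0.388 to 7.56 ± 1.06 FPKM (1.70), and MYC rose from 19.5 ± 3.12 to 265 ± 141 (3.58). MYC was called lower in naive H9 (-0.99), and its state difference between the lines was 4.57 (limma adjusted p = 0.00108).

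**Figure D4:**
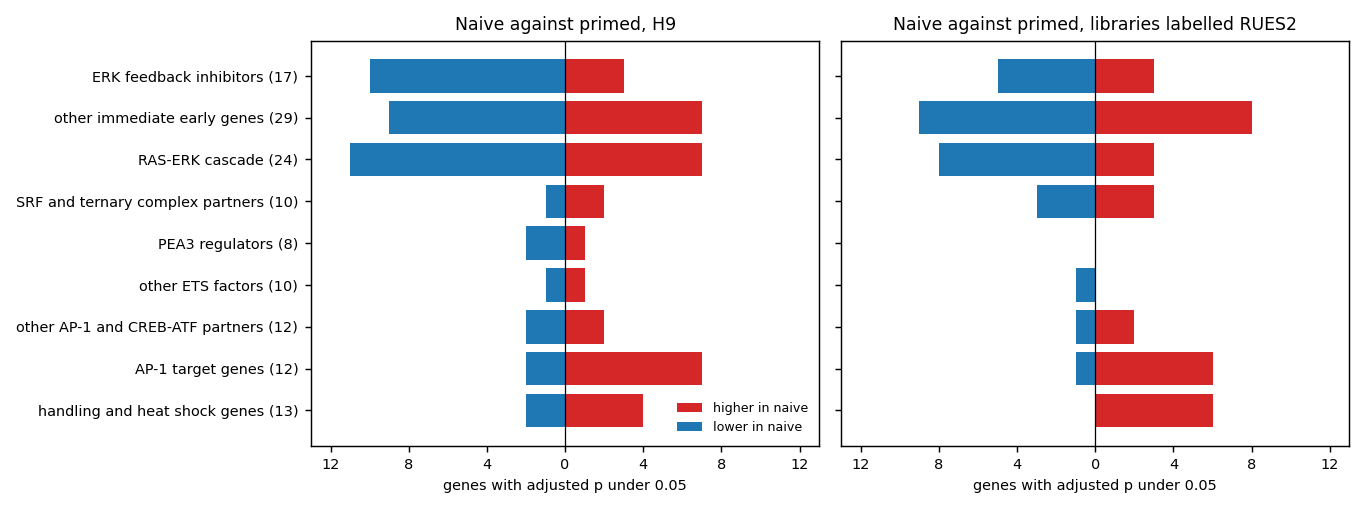
Number of genes called higher (red) or lower (blue) in the naive group by limma at an adjusted p under 0.05, for 9 gene lists in H9 (left) and in the libraries labelled RUES2 (right), with the number of genes tested in brackets. Of 17 ERK feedback inhibitors, a list that also holds NF1, RASA1 and CBL, 10 were lower and 3 higher in H9, and 5 lower and 3 higher in RUES2. The RAS-ERK cascade list also holds MAPK8, MAPK9 and MAPK14.

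A list of RAS to ERK cascade genes was also called in both directions. The list holds MAPK8, MAPK9 and MAPK14 too, which encode stress-activated MAP kinases outside that cascade, and its counts include them. Of 24 tested, 7 were called higher and 11 lower in H9, and 3 higher and 8 lower in RUES2, with medians of -0.11 and -0.08. RPS6KA2, a kinase downstream of ERK, fell from 3.87 ± 0.666 to 0.88 ± 0.2 FPKM in H9 (log2 difference -1.37) and from 5.16 ± 0.605 to 2.39 ± 0.326 in RUES2 (-0.86). The RAF kinase gene ARAF rose from 15.0 ± 0.243 to 31.9 ± 0.656 FPKM in H9 (1.04), with RPS6KA3 (0.80) and HRAS (0.63). In RUES2 HRAS rose by 0.93, and RPS6KA1 (-0.85) and the scaffold gene KSR1 (-0.79) fell. Without the naive RUES2 group 7 genes of this list were called lower in H9 in place of 11, and without primed H9 replicate 1 or 3 or any 1 naive H9 library 6 or 7. Without naive H9 replicate 1 or 3, 4 were called higher.

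Lists of factors that act with the members held between 0 and 6 calls a comparison, and leaving out 1 library moved most of these counts by 1 or 2. Of 10 SRF and ternary complex partners, 2 were called higher and 1 lower in H9, and 3 higher and 3 lower in RUES2. ELK1 rose from 13.6 ± 0.504 to 21.5 ± 1.19 FPKM in H9 (0.63) and was called lower in RUES2 (-0.20), a difference between lines of -0.83 (limma adjusted p = 0.0023). SRF (0.23) and CREB1 (-0.34) were the other calls in H9, and without the naive RUES2 group 1 gene of this list was called higher in place of 2. In RUES2 the ETS repressor gene ELK3 rose from 2.97 ± 0.902 to 7.61 ± 1.08 FPKM (1.136), with the mediator subunit MED23 (0.48), while the acetyltransferase EP300 (-0.35) and CREB1 (-0.32) fell. Of 8 regulators of PEA3 protein or transcription that were tested, 1 was called higher and 2 lower in H9. In RUES2 0 were called by limma, with 1 higher and 1 lower at an unadjusted p under 0.05. CIC itself, the repressor of the PEA3 genes, measured 9.66 ± 3.68 FPKM in primed H9, 10.9 ± 1.17 in naive H9, 9.23 ± 2.91 in primed RUES2 and 10.8 ± 1.17 in naive RUES2 and was called in neither line (limma adjusted p = 0.515 and 0.428). The H9 calls were the CIC partner ATXN1L (0.34), and the ubiquitin ligase components DET1 (-0.55) and RFWD2 (-0.20). Without the naive RUES2 group 1 gene of this list was called lower in H9 in place of 2, and the same held for the list of AP-1 and CREB or ATF partners. Of 10 other ETS factors tested, 1 was called higher and 1 lower in H9 (ELF4, 0.87, and SPIB, -0.71) and 1 lower in RUES2 (SPIB, -0.73). Of 12 AP-1 and CREB or ATF partners, 2 were called higher and 2 lower in H9, and 2 higher and 1 lower in RUES2. ATF5 rose from 8.29 ± 2.95 to 20.5 ± 0.491 FPKM in H9 (1.26) and MAFK fell (-0.95).

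Genes known as AP-1 targets in other cells were called in both directions, 7 higher and 2 lower of 12 tested in H9 and 6 higher and 1 lower in RUES2, with medians of 0.61 and 0.54. In H9 4 were higher without naive H9 replicate 3, and 4 were lower without primed H9 replicate 2. The urokinase gene PLAU fell from 9.79 ± 6.5 to 0.668 ± 0.0569 FPKM in H9 (-2.53) and from 8.14 ± 2.11 to 1.86 ± 1 in RUES2 (-1.71). The gelatinase MMP2 rose from 24.5 ± 3.39 to 94.3 ± 4.99 FPKM in H9 (1.91) and from 14.0 ± 5.78 to 65.3 ± 16.3 in RUES2 (2.173). ITGA5 (1.13) rose in H9, and VIM (1.82) and CD44 (1.48) in RUES2. MMP2 is in the fibroblast marker list too, of whose 13 tested genes 10 were called higher and 0 lower in H9 (1 lower at an unadjusted p under 0.05), and 9 higher and 1 lower in RUES2. The share of these changes that comes with fibroblast RNA was not tested. Among 13 heat shock and handling response genes, 4 were called higher and 2 lower in H9, and 6 higher and 0 lower in RUES2 (0 lower at an unadjusted p under 0.05 too). In H9 2 were higher without naive H9 replicate 3, and in RUES2 3 without primed RUES2 replicate 2. SOCS3, a feedback inhibitor of LIF and STAT3 signalling, rose from 4.84 ± 1.49 to 11.4 ± 2.61 FPKM in H9 (1.10) and from 4.12 ± 1.83 to 15.2 ± 5.18 in RUES2 (1.67). HSPA1A (-0.81) and HSPA1B (-0.87), near-identical copies whose reads may be split, were called lower in H9.

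Genes whose levels followed each member most closely over the 12 libraries were listed by Pearson correlation of log2(FPKM + 1), among 10225 tested genes whose mean reached 5 FPKM in 1 group or more. The 12 libraries fall into 4 groups of 3, so r mostly follows the group means, and it is a description. For ETV1 they were the receptor phosphatase gene PTPRZ1 (r = 0.992), FAM111A (0.99) and the neuroligin NLGN4X (0.989). For EGR1 they were the PI3 kinase subunit PIK3CD (0.984), TNRC6A (0.984) and GPBP1L1 (0.983). IER2 was matched by the homeobox repressor TGIF1 (0.988), RNF213 (0.986) and KCNK5 (0.985), and PHLDA1 by BSPRY (0.957), OCLN (0.951) and SPINT2 (0.946). PTPRZ1, for example, averaged 56.1 FPKM in primed H9, 7.94 in naive H9, 40.9 in primed RUES2 and 7.38 in naive RUES2.

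For the other 6 genes the listed r lay between 0.836 and 0.946. ETV4 was matched by the interleukin receptor IL4R (r = 0.888), SNORD91A (0.865) and NRD1 (0.864). ETV5 was matched by MAPK3, the gene of ERK1 (0.869), RNF168 (0.868) and HSD17B12 (0.855). FOS was matched by PPP2R5A (0.893), DOCK11 (0.893) and GEMIN7 (0.836), JUN by LINC00086 (0.932), RPL13P5 (0.903) and PHLDA2 (0.892), and FOSL1 by HSPA4 (0.927), SKA3 (0.905) and EIF2S2 (0.895). IER3 was matched by the glycosyltransferase MGAT2 (0.946), KIAA1161 (0.937) and AP2B1 (0.913). KIAA1161 averaged 3.56 FPKM in primed H9, 4.95 in naive H9, 2.19 in primed RUES2 and 5.57 in naive RUES2, the same order of groups as IER3.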

How the data were processed

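Poly(A) RNA of 12 libraries was sequenced, 3 from each of 4 groups named by the line and state labels. Per the submitters' processing notes, the build was hg19 and the tools included TopHat2 2.1.1 and bcl2fastq 2.17.1.14. The deposited tables hold FPKM values by the authors with confidence bounds, per the file headers. The design text calls the values RPKM, and which program made them is not given in the sources used. Each table has 25278 entries for 23615 symbols. For the 554 symbols with several loci the locus of highest mean was kept, and 2 symbols with a failed value were left out. No pair of libraries held identical values.

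Tests used limma 3.58.1 (R 4.3.3) with a variance trend on log2(FPKM + 1), 1 fit over all 12 libraries, a filter of at least 1 FPKM in 3 libraries, and Benjamini-Hochberg adjustment over all 14428 genes left. Within each line naive was compared with primed, then that difference between the lines, and RUES2 against H9 in each state. The fit was tested on simulated data before use. Python 3.11.15, numpy 2.4.6, pandas 2.3.3 and matplotlib 3.10.9 made the summaries and figures.

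The 10 members, the gene lists and the tests were chosen with earlier results of these data known. All 10 members were named in every comparison, with the 3 genes most correlated with each among those whose mean reached 5 FPKM in a group. Of every other list except the markers of cell types and states, up to 4 called genes of largest log2 change per state comparison were named, except 1 that is not reported here. Genes named outside this rule are NANOG, CYR61, THNSL2, CTSF, SPRY2, SPRED2, NF1, DUSP7 and CIC, with some called genes of the lists, and they were chosen after their values were seen. The lists of fibroblast, pluripotent cell, primed state, naive state, trophoblast and amnion, mesendoderm and neural markers are given by sums or counts, which departs from the naming rule, and of their genes MIXL1, NANOG, DUSP6, PTPRZ1 and MMP2 are named. Alternatives were a pseudocount of 0.1, no filter, a filter of 5 FPKM, median-ratio scaling, short RNAs left out, no variance trend, 2 groups only, a replicate block and each library left out. After the data were seen, fits without the naive RUES2 group and without every replicate 2 were added.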

Additional observations from a re-analysis of the deposited data

Results flagged for a closer look

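IER3 was the 1 member called for a difference between the lines in its state change. The interaction term was 1.72 on the log2 scale (SE 0.37, limma adjusted p = 0.0256), with a difference of 2.02 in the libraries labelled RUES2 and 0.30 in H9. All 3 primed RUES2 libraries lay between 4.26 and 9.86 FPKM, below the other 9, which lay between 18.8 and 38.5. The libraries labelled naive RUES2, which also stood apart in THNSL2, MYC and NANOG, enter this result. So does primed H9, of which 2 libraries did not match naive H9 in CTSF. Over the 20 alternatives its adjusted p ranged from 0.0177 to 0.0717, and 5 of them ended the call.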

How the results depend on the processing

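Of 1055 values of single members under other settings, 974 kept their direction and side of the threshold, 24 lost a call, 7 gained one and 50 changed sign. The changes of sign were all in members without a call in that comparison, and the cause was not tested. ETV1, EGR1 and IER2 kept their state calls in both lines in every alternative run, and PHLDA1 in H9. No read counts were used, but the authors' confidence bounds of at least 1 pair of replicates lay apart in 33 of 40 combinations of member and group, so there the spread exceeded the error those bounds describe.

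With a pseudocount of 0.1 the interaction for FOS was 0.011. With short RNAs left out it was -0.034 for FOSL1, and naive RUES2 against naive H9 was -0.018 for ETV4 and -0.068 for IER2. Without every replicate 2 the interaction was -0.25 for ETV4, -0.16 for ETV5, -0.46 for FOSL1 and 0.33 for EGR1, primed RUES2 against primed H9 was 0.62 for ETV4, 0.17 for ETV5, -0.0014 for JUN and -0.53 for EGR1, and naive RUES2 against naive H9 was 0.027 for ETV1 and 0.015 for ETV5.

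Leaving out 1 library, the H9 state difference ranged from -0.52 to 0.15 for FOS and from -0.14 to 0.75 for JUN, and that of RUES2 from -0.64 to 0.11 for ETV4 and from -0.47 to 0.12 for ETV5. The interaction ranged from -0.75 to 0.27 for EGR1, -0.19 to 0.59 for ETV4, -0.16 to 0.59 for ETV5, -0.36 to 0.30 for FOS, -0.52 to 0.36 for FOSL1 and -0.28 to 0.62 for JUN. Primed RUES2 against primed H9 ranged from -0.40 to 0.61 for EGR1, -0.48 to 0.30 for ETV4 and -0.18 to 0.72 for JUN, and naive RUES2 against naive H9 from -0.17 to 0.060 for ETV1 and -0.054 to 0.29 for ETV4.

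Over all genes, a filter of 5 FPKM, which tests fewer genes, gave 2206 lower in H9 and 2229 in RUES2 (3448 and 3412 in the fit reported), 262 higher and 162 lower for the interaction (544 and 279), 69 and 33 for primed RUES2 against primed H9 (194 and 68), and 979 higher for the naive groups (1612). The primed groups alone gave 23 higher and 4 lower and 0 members lower, and the naive groups alone 1193 lower. Without short RNAs 1477 were lower between the naive groups (677). Without the naive RUES2 group the primed groups gave 79, 17 and 0 members lower. Without every replicate 2 the interaction gave 268 and 159, and the naive groups 708 and 283. Leaving out 1 library gave 266 to 601 higher, 142 to 341 lower and 0 to 1 members higher for the interaction. It gave 53 to 284 higher and 8 to 130 lower for the primed groups, with 0 to 1 members higher and 0 to 1 lower, and 908 to 1882 higher and 305 to 929 lower for the naive groups, with 0 to 1 members higher.

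The groups share replicate numbers. Same-numbered libraries had correlations of deviations of -0.0537 to 0.136 over the 6 pairs of groups. The fit reported did not pair libraries by number. A replicate block moved the primed comparison to 128 higher and 42 lower and the RUES2 call of PHLDA1 to an adjusted p of 0.0625 (limma), and changed no other call of a member. In primed RUES2 against naive RUES2, 6 of 6 libraries correlated best with their own number, a hint from the data and not from the design. It was the highest count, since the other pairs of groups gave 0 to 4 of 6. The 6 matches of a pair are not independent, because deviations are taken from the mean of 3 libraries.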
